A study of Oryctolagus cuniculus with 34 samples.

Results

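Supraspinatus muscle 8 weeks after delayed rotator cuff repair was compared with the muscle of the opposite shoulder in 7 RNA-seq libraries, 3 of repaired and 4 of control muscle, out of 34 libraries in the whole series. The 7 libraries were chosen by their labels (treatment and the time code of 8 weeks of tenotomy followed by 8 weeks of repair), without the repair library of rabbit 3, which failed quality control in the study. Repair libraries came from the left shoulders of rabbits 1, 2 and 4, and control libraries from the right shoulders of rabbits 1, 2, 3 and 4. Genes with a CPM (read count scaled to library size) above 1 in at least 1 of the 7 libraries were tested, 11426 of the 23669 in the table, and 3254 of them could be given a symbol.

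The animals were female New Zealand White rabbits of about 6 months at the start of the study, so they were older when muscle was taken. Each rabbit gave 1 sample per shoulder, so the rabbit is the replicate. The left supraspinatus tendon was cut from the humerus, left detached for 8 weeks and reattached through bone tunnels, and muscle was taken 8 weeks later. The right shoulder was not operated on according to the study's methods, while the labels mention a cut of the skin as a sham, and its muscle comes from the same animals. Each sample is a piece from the centre of the posterior lateral region, so other regions of the muscle were not sampled, and the contrast holds tenotomy, repair and recovery together, which cannot be told apart at 8 weeks.

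Cutting a tendon removes the load from its muscle. Muscle in that state loses fibre size, gains fat and gains connective tissue, whose collagens and matrix glycoproteins are made mainly by fibroblasts and fibro-adipogenic progenitors, the same resident cells that can become adipocytes. Regenerating or denervated fibres express developmental myosins, and tendon itself has a dense matrix of collagen I held together by small proteoglycans such as fibromodulin and keratocan.

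Total expected counts were 13262913 to 18269171 in the repair libraries and 19978076 to 23569025 in the controls, and 10443 to 11023 genes had a CPM above 1 per library. The log2 CPM of each library correlated across genes with the mean of the rest of its group at r = 0.958 to 0.974 in repair and 0.984 to 0.985 in control. The left-out library held 8756033 counts. Muscle genes were at muscle levels on both sides: DES, the intermediate filament of muscle, lay between 3168 and 4423 CPM in the 7 libraries, and TNNT3, fast skeletal troponin T, between 4583 and 12293 CPM.

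No gene was differentially expressed (DE, adjusted p under 0.05 and absolute log2 fold change, log2FC, above 1) between repair and control at 8 weeks by limma-voom, 0 of 11426 genes or 0%. No gene passed the adjusted p alone, and the lowest adjusted p (limma-voom, Benjamini-Hochberg) was 0.0842. At an unadjusted p under 0.05 there were 388 genes, or 3.4%, with 197 higher (1.72%) and 191 lower (1.67%) in repair. On the same genes edgeR called 1 DE gene (364 at an unadjusted p under 0.05) and DESeq2 called 5 (402). The log2FC of all genes had a median of 0.00 and an SD of 0.432, and 284 genes (2.49%) lay above 1 against 94 (0.823%) below -1. At 1 week the same fit gave 689 DE genes (6.03%), 520 higher (4.55%) and 169 lower (1.48%) in repair, and the SD of the log2FC was 0.76.

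Another way to read 3 against 4 libraries is to ask whether they overlap. All 3 repair libraries lay above all 4 controls for 464 genes (4.06%) and below all of them for 423 (3.7%). In the following, such genes are called separated, which is a description of these libraries and not a test. Among the 3254 genes with a symbol the shares were 5.04% and 3.47%.

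The gene with the smallest p was ENSOCUG00000013161, which has no symbol here and was singled out after its values were seen. Its CPM was 1.11, 6.13 and 7.23 in the repair libraries of rabbits 1, 2 and 4 and 0.155, 0.0567, 0 and 0.126 in the controls of rabbits 1 to 4. Its log2FC was 5.56 ± 1.02 (SE, adjusted p = 0.0842, limma-voom), and edgeR called it at an adjusted p of 0.00173. Rabbit 1 had the lowest of the repair values, and the gene passed the filter on low CPM through repair libraries alone. The second smallest p belonged to ENSOCUG00000011564, with 6.52, 16.4 and 16.9 CPM in repair against 4.09 to 5.45 in control and a log2FC of 1.41 ± 0.29 (SE, adjusted p = 0.217, limma-voom).

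Other settings gave further calls. With sample quality weights, which let voom count noisy libraries less, 61 genes were DE, 49 higher and 12 lower, against 0 without weights. With the rabbit as a fixed block, which pairs the shoulders of an animal, 2 genes were DE, ENSOCUG00000013161 and ENSOCUG00000007172, and with the rabbit as a random effect, its correlation estimated over all genes, there were 0. The control of rabbit 3 adds nothing to the blocked 8-week contrast, since its partner library is missing. Leaving out rabbit 1 on the repair side gave 4 DE genes, all higher in repair and none with a symbol, and omitting any other single library of the 7 gave 0.

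Under the rule for naming genes (a symbol, a mean log2 CPM of at least 1, and separated libraries; 131 candidates higher and 104 lower), the 8 with the highest log2FC were FBLN7, SMOC1, KERA, PIEZO2, THBS1, FABP7, FNDC1 and PCK2. Each adjusted p in the fit was 1, so none of them passed the test. SMOC1, PIEZO2, FABP7 and PCK2 were among the 61 genes DE with sample quality weights, and the others were not.

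FBLN7, a secreted fibulin of the extracellular matrix, was measured at 51, 39.7 and 58.1 CPM in repair and at 7.2, 4.94, 4.22 and 9.78 CPM in control. The groups lay far apart, with a gap between 9.78 and 39.7 CPM. Its log2FC was 2.95 ± 1.42 (SE, adjusted p = 1, limma-voom across 33 libraries). In fits that took the spread from the 7 libraries of 8 weeks alone, or from the 15 libraries of 1 and 8 weeks, FBLN7 was the 1 DE gene, with adjusted p-values of 0.0234 and 0.00332 (limma-voom). No other setting called FBLN7, including edgeR, DESeq2, both rabbit blocks and sample quality weights. The paired difference was close to equal in the 3 rabbits, 2.80, 2.97 and 2.55 on the log2 scale.

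SMOC1, a calcium-binding matrix protein that modulates BMP signals, was at 5.75, 7.04 and 11.6 CPM in repair and 1.09, 0.794, 1.07 and 3.46 CPM in control. Its log2FC was 2.48 ± 1.13 (SE). THBS1, thrombospondin 1, a matrix protein that can activate latent TGF-beta, was at 243, 104 and 361 CPM in repair and 48.7, 26, 21.2 and 94 CPM in control, a log2FC of 2.39 ± 0.86. In both genes the highest control value was that of rabbit 4. FNDC1, a fibronectin domain protein, was at 46.3, 39.5 and 101 CPM in repair and 11.9 to 28.2 CPM in control, with a log2FC of 1.78 ± 0.86 and rabbit 4 again highest on each side.

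PIEZO2, a mechanically gated ion channel, was at 9.78, 6.98 and 9.34 CPM in repair and 0.984, 0.794, 2.29 and 2.74 CPM in control. Its log2FC was 2.45 ± 1.22 (SE), and the repair libraries lay close together. FABP7, a fatty acid binding protein best known from glia, was at 7.12, 6.79 and 4.38 CPM in repair and at 2.59, 1.36, 1.23 and 1.26 CPM in control, a log2FC of 1.91 ± 0.67. PCK2, the mitochondrial phosphoenolpyruvate carboxykinase, was at 8.32, 15.3 and 12.2 CPM in repair and 5.65, 2.95, 2.77 and 4.51 CPM in control, a log2FC of 1.61 ± 0.70. For PCK2 the gap within rabbit 1 was the smallest, 0.55 on the log2 scale against 2.32 in rabbit 2 and 1.41 in rabbit 4.

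The 8 genes with the lowest log2FC under the same rule were ARG2, LVRN, HK2, NKIRAS1, PLCE1, ASB10, SYNPO and PDP2, with log2FC from -1.03 to -0.69. Of these, HK2 had the smallest p.

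HK2, the hexokinase that commits glucose to use inside the fibre, was at 36.5, 40.2 and 41.4 CPM in repair and 77.1, 77.2, 94.4 and 56.2 CPM in control. The 3 repair values were nearly equal, and its log2FC was -0.94 ± 0.25 (SE, adjusted p = 0.78, limma-voom). PDP2, a phosphatase that activates pyruvate dehydrogenase, was at 1.11, 2.85 and 2.41 CPM in repair and 2.95 to 4.37 CPM in control, with a log2FC of -0.69 ± 0.29. Its highest repair value lay just below its lowest control value.

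ARG2, mitochondrial arginase, was at 25.3, 15.3 and 25.8 CPM in repair and 57.4, 39.1, 30.3 and 55.1 CPM in control. ASB10, a muscle-rich adaptor of ubiquitin ligases, was at 21.8, 20.5 and 18.4 CPM in repair and 30.4 to 43.9 CPM in control, a log2FC of -0.80 ± 0.30 (SE). SYNPO, synaptopodin, an actin-binding protein known from podocytes and dendritic spines, was at 236, 143 and 210 CPM in repair and 306 to 349 CPM in control, a log2FC of -0.73 ± 0.31. ASB10 and SYNPO were also DE and lower at 1 week, at log2FC -1.09 and -1.44.

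LVRN, an aminopeptidase, was at 3.34 to 4.63 CPM in repair and 7.04 to 9.87 CPM in control, and its 1-week log2FC was 0.00 against -0.98 at 8 weeks. NKIRAS1, an inhibitor of NF-kappaB signalling, was at 1.5 to 2.62 CPM in repair and 3.35 to 3.92 CPM in control, and PLCE1, a phospholipase C, at 4.73 to 8.41 and 8.86 to 18.4 CPM. PLCE1 was separated by a narrow margin.

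**Figure D1:**
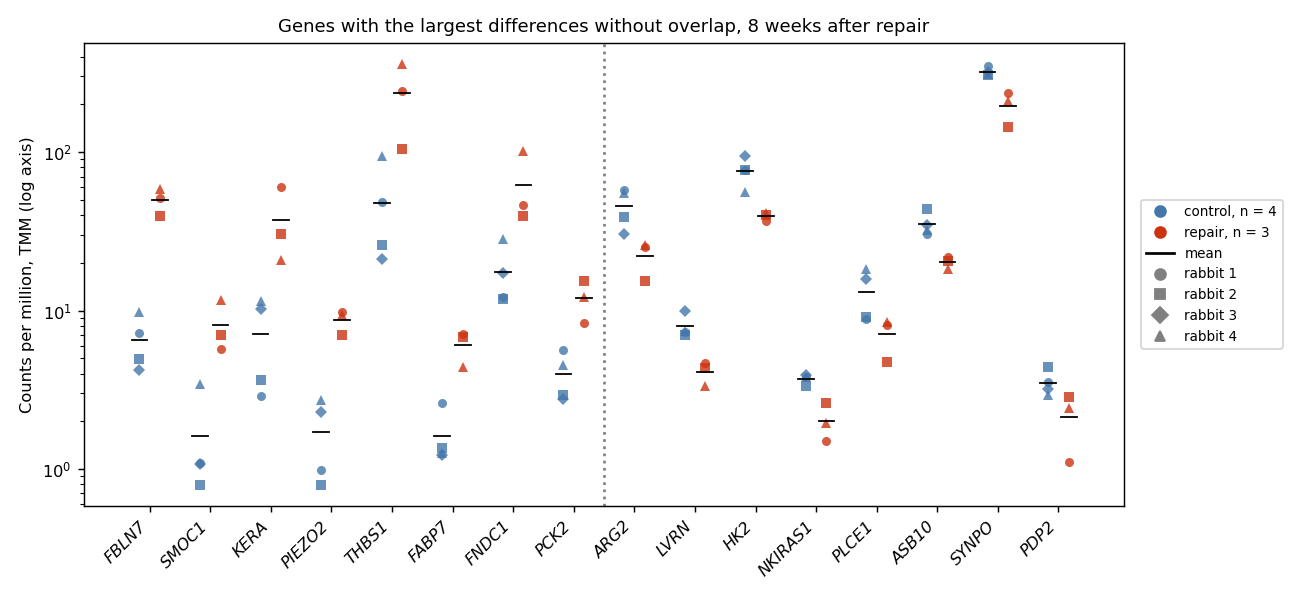
CPM (TMM scaled, log axis) of the 16 genes with the highest (left of the dotted line) and lowest (right) log2FC among separated genes with a symbol, 1 point per library, shape by rabbit, with bars at group means. FBLN7 sits between 39.7 and 58.1 CPM in the 3 repair libraries and between 4.22 and 9.78 CPM in the 4 controls, while the genes on the right differ by smaller steps, such as HK2 at 36.5 to 41.4 against 56.2 to 94.4 CPM.

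Outside that rule, 2 genes of low abundance had among the smallest p-values and were chosen after their values were seen. FAM180A, a gene of little known function, was at 1.37, 1.33 and 2.07 CPM in repair and 0.0534 to 0.295 CPM in control, a log2FC of 3.16 ± 0.75 (SE). SLC45A3, a sugar and proton transporter of the SLC45 family, was at 0.515, 0.485 and 0.393 CPM in repair and 2.51 to 3.46 CPM in control, a log2FC of -2.66 ± 0.67. Both had an adjusted p of 0.713 (limma-voom). FAM180A passed the filter on low CPM through repair libraries alone and SLC45A3 through controls alone, so their separation was favoured by the filter.

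Tendon and cartilage markers differed most among all gene lists. All 11 tested markers had a log2FC above 0, with a median of 2.58 against 0.00 over all genes, and 3 were separated and higher (27.3%, against 4.06% of all genes). EPYC and HAPLN1 passed the filter on low CPM through repair libraries alone, so their direction was favoured by the filter. None of the 11 was DE, and 4 had an unadjusted p under 0.05, all higher (36.4%, against 1.72% of all genes). Their summed level was 577, 284 and 962 CPM in the repair libraries of rabbits 1, 2 and 4 and 102, 84.4, 123 and 331 CPM in the controls of rabbits 1 to 4, so that the repair library of rabbit 2 lay below the control of rabbit 4. In bulk tissue more cells of a type and more RNA per cell cannot be told apart.

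FMOD, fibromodulin, a proteoglycan that binds collagen fibrils in tendon, was at 84.3, 14.1 and 152 CPM in repair and 1.3, 1.25, 1.6 and 43 CPM in control. Its log2FC was 3.92 ± 1.36 (SE, adjusted p = 1, limma-voom). The control of rabbit 4 lay above the repair library of rabbit 2, so the groups overlapped, although each rabbit had more FMOD in its repaired shoulder. MKX, mohawk, a transcription factor of tendon cells, followed the same order with 4.97, 1.15 and 5.95 CPM in repair against 0.207, 0.567, 0.374 and 1.35 CPM in control, a log2FC of 2.58 ± 1.00.

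KERA, keratocan, another small proteoglycan of tendon and cornea, was at 60, 30.4 and 20.7 CPM in repair and 2.9, 3.63, 10.2 and 11.5 CPM in control, separated, with a log2FC of 2.45 ± 1.3 (SE). COL11A1, a collagen that nucleates fibrils in cartilage and developing tendon, was at 75, 10.4 and 60.1 CPM in repair and at 1.45, 0.794, 1.12 and 24.8 CPM in control. THBS4, thrombospondin 4 of tendon and muscle matrix, was at 226, 132 and 490 CPM in repair and 33.6, 42.2, 29.3 and 145 CPM in control. ACAN, the cartilage proteoglycan aggrecan, was separated at 2.83, 2.12 and 11 CPM against 0.32 to 1.69 CPM.

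For MATN4 and ANGPTL7 the control of rabbit 4 also stood above its fellow controls. MATN4, a matrilin, was at 0.259, 0.284, 0.374 and 4.34 CPM in control and 6.35, 3.58 and 20.7 CPM in repair. ANGPTL7, a secreted angiopoietin-like protein, was at 0.207, 0.113, 1.12 and 15.8 CPM in control and 28.2, 0.667 and 44.4 CPM in repair. CILP, a cartilage layer protein, was separated at 87.9, 87.2 and 155 CPM against 61.1, 34.4, 77.6 and 82.8 CPM, while EPYC and HAPLN1, which passed the filter through repair libraries alone, lay at 0.415 to 2.12 CPM and 0 to 1.2 CPM across the 7 libraries. Leaving out the control of rabbit 4 moved the median log2FC of the 11 markers to 3.12, and leaving out rabbit 1, 2 or 4 on the repair side moved it to 2.38, 3.34 and 1.84.

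**Figure D2:**
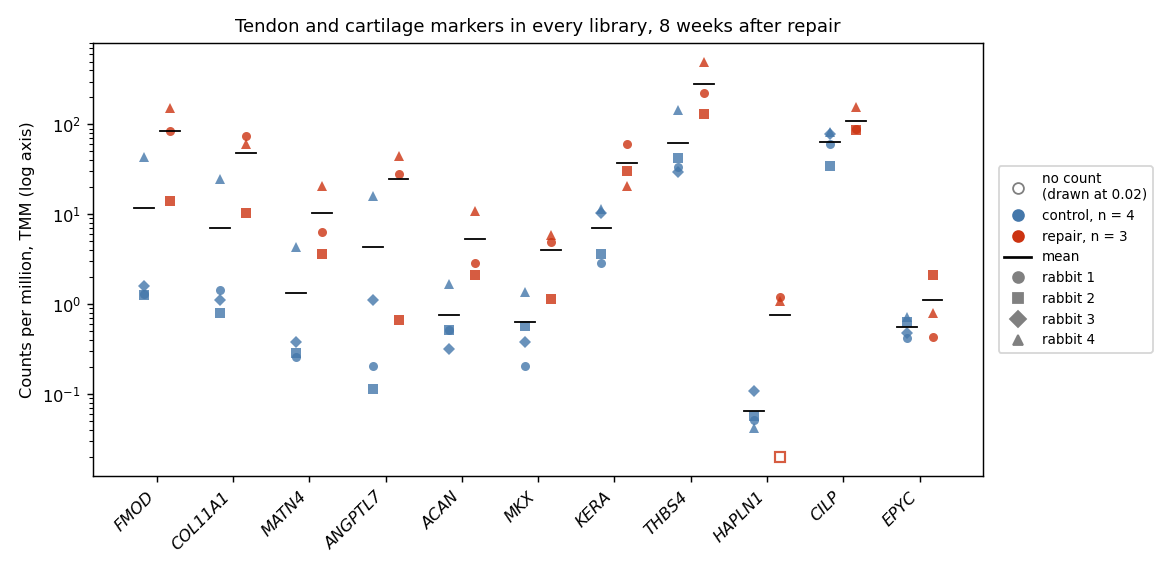
CPM (TMM scaled, log axis) of the 11 tested tendon and cartilage markers in the 3 repair and 4 control libraries, shape by rabbit, with bars at group means and an open symbol for a library without a count. Within the control group the triangle of rabbit 4 stands apart for FMOD (43 CPM against 1.25 to 1.6) and COL11A1 (24.8 against 0.794 to 1.45).

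Fibrillar matrix genes leaned the same way by a smaller step. Of 41 tested genes of fibrillar collagens, their processing and the interstitial matrix, 38 had a log2FC above 0 (92.7%, against 50.3% of all genes), the median was 0.39, and 8 were separated and higher (19.5%, against 4.06%) with none separated and lower. Without THBS4 and COL11A1, which the tendon list also holds, the median stayed at 0.39 over 39 genes. None was DE at 8 weeks, and 5 had an unadjusted p under 0.05, all higher (12.2%, against 1.72% of all genes). The summed matrix level was 6986, 4135 and 6707 CPM in the repair libraries of rabbits 1, 2 and 4 and 3346, 2665, 4545 and 3974 CPM in controls, and it was the repair library of rabbit 2, lowest in tendon markers among the repair libraries, that came within the control range here. The part of tendon tissue in these matrix values was not tested.

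Collagen I, the main collagen of tendon and scar, was higher in each repaired shoulder but not separated. COL1A1 was at 1033, 249 and 567 CPM in repair and 204, 125, 330 and 265 CPM in control, a log2FC of 1.32 ± 1.21 (SE, adjusted p = 1, limma-voom). COL1A2, its partner chain, named for that reason after its values were seen, was at 1703, 501 and 1007 CPM against 222 to 622 CPM. Within rabbits the COL1A1 difference was 2.34, 0.99 and 1.10 on the log2 scale, the largest in rabbit 1.

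Collagen III differed far less. COL3A1, typical of young scar and of the interstitium, was at 1077, 983 and 1082 CPM in repair and 925, 675, 1624 and 763 CPM in control, with a log2FC of 0.16 ± 0.92 (SE). The highest of all 7 values was the control of rabbit 3. COL12A1, a collagen that decorates collagen I fibrils, was at 171, 53.1 and 188 CPM against 20.7 to 75.2 CPM, a log2FC of 1.76 ± 1.13.

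LOX, the enzyme that cross-links collagen, was separated at 26.4, 18.9 and 17.6 CPM in repair against 10.3, 4.2, 12.9 and 14 CPM in control, a log2FC of 1.09 ± 0.94 (SE). FN1, fibronectin, was separated at 352, 366 and 482 CPM against 218 to 327 CPM, a log2FC of 0.45 ± 1.05. SPARC, a collagen-binding matrix protein, was at 792, 413 and 579 CPM in repair and 359 to 431 CPM in control, so that rabbit 2 again came within the control range. The error of LOX was nearly as large as its difference and that of FN1 larger, in a fit that takes its spread from all 8 groups of time and treatment.

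Fibroblast and fibro-adipogenic progenitor markers, 24 tested, had a median log2FC of 0.37, with 22 above 0 (91.7%, against 50.3% of all genes) and 5 separated and higher (20.8%, against 4.06%). The median was 0.22 without the repair library of rabbit 4 and 0.57 without that of rabbit 1. Of the 24, 1 had an unadjusted p under 0.05, higher in repair (4.17%, against 1.72% of all genes). DCN, the proteoglycan decorin, was at 582, 718 and 1024 CPM in repair and 453 to 704 CPM in control. PDGFRA, the receptor that marks fibro-adipogenic progenitors, was at 29.9, 37.2 and 52.2 CPM in repair and 33.1, 28.6, 33.5 and 33.3 CPM in control, with the repair library of rabbit 1 inside the control range and a log2FC of 0.27 ± 0.60 (SE). TIMP3, an inhibitor of metalloproteinases, had a log2FC of 0.42 ± 0.34. The summed marker level was 3618 to 5853 CPM in repair and 2757 to 4014 CPM in control, which overlap.

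Basement membrane genes had a median log2FC of 0.12 over 14 tested genes, none separated and higher and 1 separated and lower (7.14%, against 3.7% of all genes). In TGF-beta family signalling the median was 0.11 over 17 genes. CCN2, a target of TGF-beta and of stretch, was at 114, 55.3 and 107 CPM in repair and 62.3, 20.4, 38.7 and 51.2 CPM in control, a log2FC of 1.15 ± 0.67 (SE). GREM1, a secreted BMP antagonist chosen after its values were seen, was at 0.257, 0.485 and 1.97 CPM in repair and 0.0518, 0.113, 0.107 and 0.59 CPM in control, a log2FC of 2.09 ± 0.81. It passed the filter on low CPM through 1 repair library alone, and the control of rabbit 4 lay above the repair libraries of rabbits 1 and 2.

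Adipocyte markers were the other list with every tested member above 0. The median log2FC of the 6 markers was 0.78, and ADIPOQ and HCAR1 were separated and higher (33.3%, against 4.06% of all genes). HCAR1 passed the filter on low CPM through a repair library alone, so its direction was favoured by the filter. The median was 0.47 without the repair library of rabbit 4 and 1.15 without that of rabbit 1, whose own paired difference was above 0 for 4 of the 6 markers. ADIPOQ, adiponectin, the hormone secreted by fat cells, was at 246, 301 and 326 CPM in repair and 196, 122, 192 and 227 CPM in control, a log2FC of 0.68 ± 0.49 (SE, adjusted p = 1, limma-voom). Rabbit 1 showed the smallest paired difference, 0.33 on the log2 scale, against 1.31 in rabbit 2.

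LIPE, hormone-sensitive lipase, was at 10.1, 29.4 and 53 CPM in repair and 15.2, 10.4, 8.86 and 26.3 CPM in control. In rabbit 1 it was lower in the repaired shoulder (-0.58 on the log2 scale) and in rabbits 2 and 4 higher (1.48 and 1.00). THRSP, a lipogenic factor, was at 2.92, 5.52 and 6.79 CPM in repair and 1.08 to 3.79 CPM in control. HCAR1, the lactate receptor of fat cells, was at 0.429, 0.485 and 1.23 CPM against 0.107 to 0.422 CPM, separated by a narrow margin. CD36, the fatty acid transporter of fibres, vessels and fat cells, was at 98.6, 180 and 187 CPM in repair and 116 to 134 CPM in control, so rabbit 1 fell below the whole control range and rabbits 2 and 4 above it. Summed over the list the level was 374, 539 and 606 CPM in repair and 267 to 401 CPM in control.

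Lipid synthesis genes did not lean by their median, a log2FC of -0.02 over 22 genes with 10 above 0. Of the 22 genes, 4 were separated and higher (18.2%, against 4.06% of all genes). Only 1 was separated and lower (4.55%, against 3.7%). An unadjusted p under 0.05 (limma-voom) was seen for 2, both higher (9.09%, against 1.72% of all genes). The desaturase SCD, which makes monounsaturated fatty acids, has 2 identifiers with that symbol, so reads may be split between them. SCD (ENSOCUG00000001375) was at 77.7, 172 and 159 CPM in repair and 53, 31.3, 50.6 and 66.8 CPM in control, separated, with a log2FC of 1.38 ± 0.66 (SE, adjusted p = 1, limma-voom). SCD (ENSOCUG00000014801) was at 10.7, 18.1 and 10.3 CPM against 6.94 to 9.01 CPM, also separated, with a log2FC of 0.65 ± 0.40. ACLY, which makes cytosolic acetyl-CoA, was separated as well, at 29.8, 27.9 and 34.4 CPM against 21.9 to 25.8 CPM.

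Contractile genes gave a median log2FC of -0.05 over 17 tested genes, ranging from -0.40 to 0.28. MYOM2, the M-band protein of fast fibres, was at 2804, 4395 and 3328 CPM in repair and 2650 to 3346 CPM in control, a log2FC of 0.16 ± 0.51 (SE). ATP2A1, the calcium pump of fast fibres, was at 28351, 19508 and 10258 CPM in repair and 17928, 20400, 28714 and 18809 CPM in control, so that the repair libraries spanned more than the controls did. TCAP, titin-cap, had a log2FC of -0.40 ± 0.43.

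Genes of regeneration and denervation had a median log2FC of 0.29 over 8 tested genes. MYH8, the perinatal myosin heavy chain, was separated at 58.1, 276 and 94.7 CPM in repair against 35.3, 35.7, 55.8 and 29.2 CPM in control, a log2FC of 1.58 ± 0.80 (SE, adjusted p = 1, limma-voom). The margin in rabbit 1 was small, and rabbit 2 was far above the other libraries. GADD45A, a growth arrest gene induced by denervation, was at 15.1, 48.6 and 14.3 CPM in repair and 11.6 to 15.3 CPM in control, so that within the repair group rabbit 2 alone lay above the control range. UCHL1, a ubiquitin hydrolase of neurons and fibres, was separated and lower, at 37.3, 37 and 24.4 CPM against 43.6 to 49.1 CPM.

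Muscle growth signals had a median log2FC of -0.19 over 17 genes, with members on each side. In this list 1 gene was separated and higher (5.88%, against 4.06% of all genes) and 2 were separated and lower (11.8%, against 3.7%). An unadjusted p under 0.05 (limma-voom) was seen for 2 genes, both lower (11.8%, against 1.67% of all genes). FGF6, a growth factor made by muscle, was at 15.1, 3.88 and 5.66 CPM in repair and 8.86, 15.8, 18.4 and 13.7 CPM in control, a log2FC of -1.07 ± 0.50 (SE, adjusted p = 1, limma-voom). Rabbit 1 went the other way, with more FGF6 in its repaired shoulder. IGF1, the growth factor of muscle hypertrophy, was separated and higher at 4.89, 5.7 and 5.7 CPM against 2.69 to 4.09 CPM, a log2FC of 0.76 ± 0.90. The range of the list ran from FGF6 to IGF1.

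Muscle ubiquitin ligases and atrophy genes had a median log2FC of -0.11 over 11 genes. ASB10 and BNIP3 were the 2 separated members, both lower (18.2%, against 3.7% of all genes). BNIP3, a mitophagy receptor, was at 300, 254 and 212 CPM in repair and 309 to 348 CPM in control, a log2FC of -0.36 ± 0.29 (SE). Proteasome subunits (18 genes) had a median of -0.05 with a range of -0.15 to 0.33.

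Mitochondrial lists lay close to 0. The median log2FC was 0.02 over 17 genes of the respiratory chain, ATP synthase and their assembly and 0.01 over 9 genes of fatty acid oxidation. Mitochondrial ribosome genes had a median of -0.07, with 4 of 27 above 0 (14.8%, against 50.3% of all genes) and a range of -1.87 to 0.15. UQCRC1, a core subunit of complex III, was separated and lower at 359, 411 and 372 CPM in repair against 437, 585, 438 and 441 CPM in control, a log2FC of -0.32 ± 0.26 (SE).

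In central carbon metabolism the median was -0.09 over 22 genes. HK2, PDP2 and OGDH were separated and lower (13.6%, against 3.7% of all genes), with none separated and higher (against 4.06% of all genes). OGDH, a subunit of the 2-oxoglutarate dehydrogenase of the citric acid cycle, was at 505, 608 and 619 CPM in repair and 632 to 786 CPM in control, a log2FC of -0.31 ± 0.21 (SE). PPP1R3B, which directs a phosphatase to glycogen and was chosen after its value was seen, was at 5.15, 1.82 and 4.23 CPM against 23.5, 6.92, 2.83 and 8.01 CPM, with rabbit 1 highest and rabbit 3 lowest among the controls. Its log2FC was -1.23 ± 0.63, and the groups overlapped.

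Endothelial markers had a median log2FC of 0.03 over 25 genes. ANGPT1, the agonist of the TEK receptor made by pericytes and fibres, had the smallest p of any gene on the lists, with 13.7, 18 and 19.9 CPM in repair and 9.33, 6.75, 14.9 and 8.39 CPM in control, a log2FC of 0.87 ± 0.22 (SE, adjusted p = 0.713, limma-voom). Each rabbit had more in its repaired shoulder, but the control of rabbit 3 lay above the repair library of rabbit 1. TEK itself was separated and lower, at 27.7, 29.4 and 30.1 CPM against 33.1 to 45.9 CPM, a log2FC of -0.36 ± 0.23, and VEGFA, the growth factor of capillaries, had a log2FC of -0.51 ± 0.30. Mural markers had a median of 0.03 over 13 genes, among which PDGFRB was separated and higher at 81.7, 84.4 and 102 CPM against 63.5 to 78.7 CPM.

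Immune lists showed no common direction at 8 weeks. The 27 macrophage markers had a median log2FC of 0.12, 16 were above 0 and none was separated, and their sum was 118 to 213 CPM in repair and 98.5 to 177 CPM in control. Lymphocyte markers had a median of 0.00 over 7 genes, interferon and antigen presentation genes -0.07 over 20, and nerve and Schwann cell markers -0.09 over 9.

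Medians of signalling lists stayed within 0.1 of 0 for NF-kappaB (median log2FC 0.05, 20 genes), mTOR (-0.06, 18 genes) and ErbB and MAPK (-0.04, 23 genes). For p53 and its targets the median was 0.19 over 13 genes. Separated and lower were 4 ErbB and MAPK genes (17.4%, against 3.7% of all genes), 2 mTOR genes (11.1%) and 1 NF-kappaB gene (5%). Separated and higher were 2 NF-kappaB genes (10%, against 4.06% of all genes) and 2 of the p53 list (15.4%), with 0 in the mTOR and the ErbB and MAPK lists. GAB1, an adaptor of growth factor receptors, had a log2FC of 0.44 ± 0.20 (SE, adjusted p = 1, limma-voom), and MAP2K1, the kinase upstream of ERK, was separated and lower at 67.2 to 72.8 CPM against 79.2 to 102 CPM. Cell cycle genes had a median of 0.13, with 18 of 22 above 0 and none separated. Circadian genes had a median of 0.09 over 6.

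Immediate early and stress genes had a median log2FC of 0.39 over 15 genes, with 14 above 0 (93.3%, against 50.3% of all genes) and 3 separated and higher (20%, against 4.06%). The median was 0.19 without the repair library of rabbit 4. NR4A2, a nuclear receptor induced by activity and stress and chosen after its values were seen, was at 14.4, 24.4 and 8.11 CPM in repair and 11.9, 8.63, 3.15 and 1.81 CPM in control, a log2FC of 1.56 ± 0.56 (SE, adjusted p = 1, limma-voom). The groups overlapped, and the paired difference was 0.27, 1.49 and 2.08 on the log2 scale in rabbits 1, 2 and 4.

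Most genes that were DE soon after repair had an 8-week log2FC on the same side of 0, and none of them was DE at 8 weeks. The 1-week libraries come from other rabbits, with no library shared, although both enter 1 fit, and belong to the same series of titles as the 8-week libraries. Of the 520 genes DE and higher at 1 week, 496 (95.4%) had a log2FC above 0 at 8 weeks, against 50.3% of all genes, and their median was 0.49 at 8 weeks and 1.56 at 1 week. The 1-week values chose these genes and are given as a description only. At 8 weeks 119 of them were separated and higher (22.9%, against 4.06% of all genes) and none separated and lower. An unadjusted p under 0.05 was seen for 65, all higher (12.5%, against 1.72% of all genes).

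The 169 genes DE and lower at 1 week mirrored this. Their median log2FC was -0.40 at 8 weeks and -1.22 at 1 week, 10 of them lay above 0, 32 were separated and lower (18.9%, against 3.7% of all genes) and 1 was separated and higher. Of the 497 genes DE and higher at 2 weeks (588 DE, 5.15%, with 4.35% higher and 0.796% lower), 455 were above 0 at 8 weeks (median 0.35), and of the 91 lower at 2 weeks, 10 were (median -0.34). The 6 genes DE at 4 weeks (0.0525%), all higher and among them ANGPT1, CD36 and SCD (ENSOCUG00000001375), all had a log2FC above 0 at 8 weeks, with a median of 0.96. These sets come from the fit without the pairing of shoulders. With the rabbit as a fixed block there were 1294 DE genes at 1 week, 1538 at 2 weeks and 206 at 4 weeks (172 higher and 34 lower), and with the rabbit as a random effect 992, 851 and 86 (60 higher and 26 lower).

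Across all 11426 genes the 8-week log2FC correlated with that at 1, 2 and 4 weeks at r = 0.657, 0.552 and 0.601. Genes are not independent replicates, so these values only describe the libraries. The libraries of 2 and 4 weeks carry titles of another series than those of 8 weeks, so time and library series cannot be told apart in comparisons with them.

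**Figure D3:**
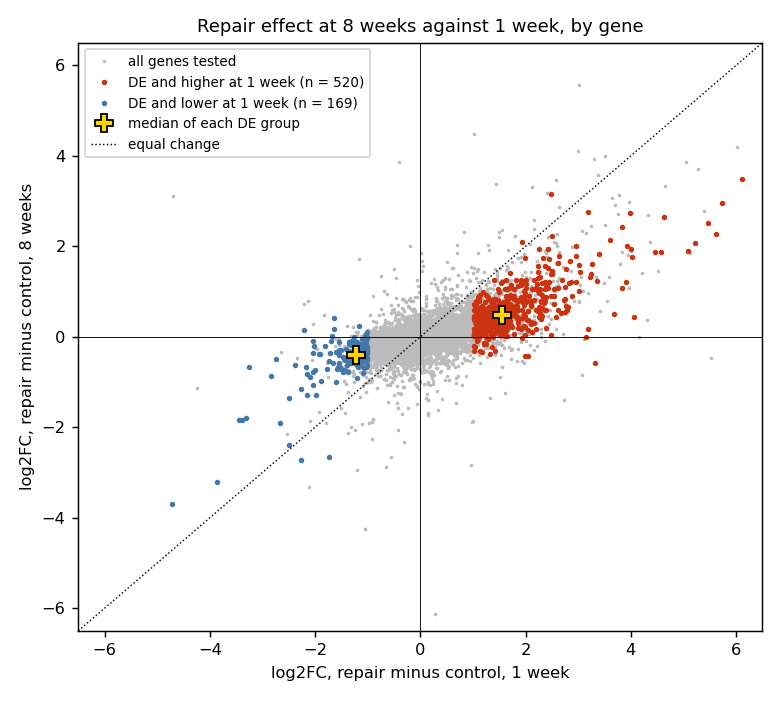
Each point is a gene, with its log2FC of repair minus control at 1 week on the x axis and at 8 weeks on the y axis, and the dotted line marks equal change. The 520 genes DE and higher at 1 week (red) and the 169 lower (blue) lie between the x axis and the dotted line for the most part, with medians (crosses) at 1.56 and 0.49 and at -1.22 and -0.40.

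Whether the repair effect itself differed between 8 weeks and 1 week was tested as an interaction. No gene was DE for that difference by limma-voom (0 of 11426, 0%, lowest adjusted p = 0.811), with 631 genes at an unadjusted p under 0.05 (5.52%, of which 3.25% higher and 2.28% lower at 8 weeks), 0 DE by edgeR (636 at an unadjusted p under 0.05) and 2 by DESeq2 (738). With sample quality weights 25 genes were DE. For the difference from 2 weeks and from 4 weeks there were also 0 DE genes by limma-voom, with 1034 (9.05%) and 276 (2.42%) genes at an unadjusted p under 0.05, while DESeq2 called 14 and 3. By edgeR there were 0 for both, with 1687 and 389 genes at an unadjusted p under 0.05.

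Single genes with differences between the times illustrate the size of the errors. GADD45A had a log2FC of 2.11 at 1 week and 0.71 at 8 weeks, a difference of -1.40 ± 0.46 (SE). MYOM2 was DE and lower at 1 week, at log2FC -1.64, and its difference was 1.81 ± 0.68. FBLN7 had 5.74 at 1 week and 2.95 at 8 weeks, a difference of -2.79 ± 2.45, and HK2, THBS1 and ANGPT1 had differences of -0.25 ± 0.35, 0.24 ± 1.16 and 0.42 ± 0.29. For GADD45A and MYOM2 the unadjusted p of the difference was under 0.05, for the other 4 it was not, and no adjusted p passed.

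By list, the 8-week medians lay nearer to 0 than the 1-week medians in fibrillar matrix (0.39 and 1.58), fibroblast markers (0.37 and 1.29), macrophage markers (0.12 and 1.12), adipocyte markers (0.78 and 1.73) and respiratory chain genes (0.02 and -0.60). All 27 macrophage markers, 39 of 41 matrix genes and 24 of 24 fibroblast markers had a lower log2FC at 8 weeks than at 1 week, against 6195 of all 11426 genes (54.2%), and all 17 respiratory chain genes had a higher one. An unadjusted p under 0.05 (limma-voom) for the difference was seen for 1 of the 41 matrix genes, lower at 8 weeks, against 2.28% of all genes. It was seen for 8 of the 17 respiratory chain genes, higher at 8 weeks, against 3.25% of all genes, and for none of the macrophage and fibroblast markers. Tendon markers had medians of 2.58 and 3.15, with 7 of 11 lower at 8 weeks, and immediate early genes 0.39 and 0.43.

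**Figure D4:**
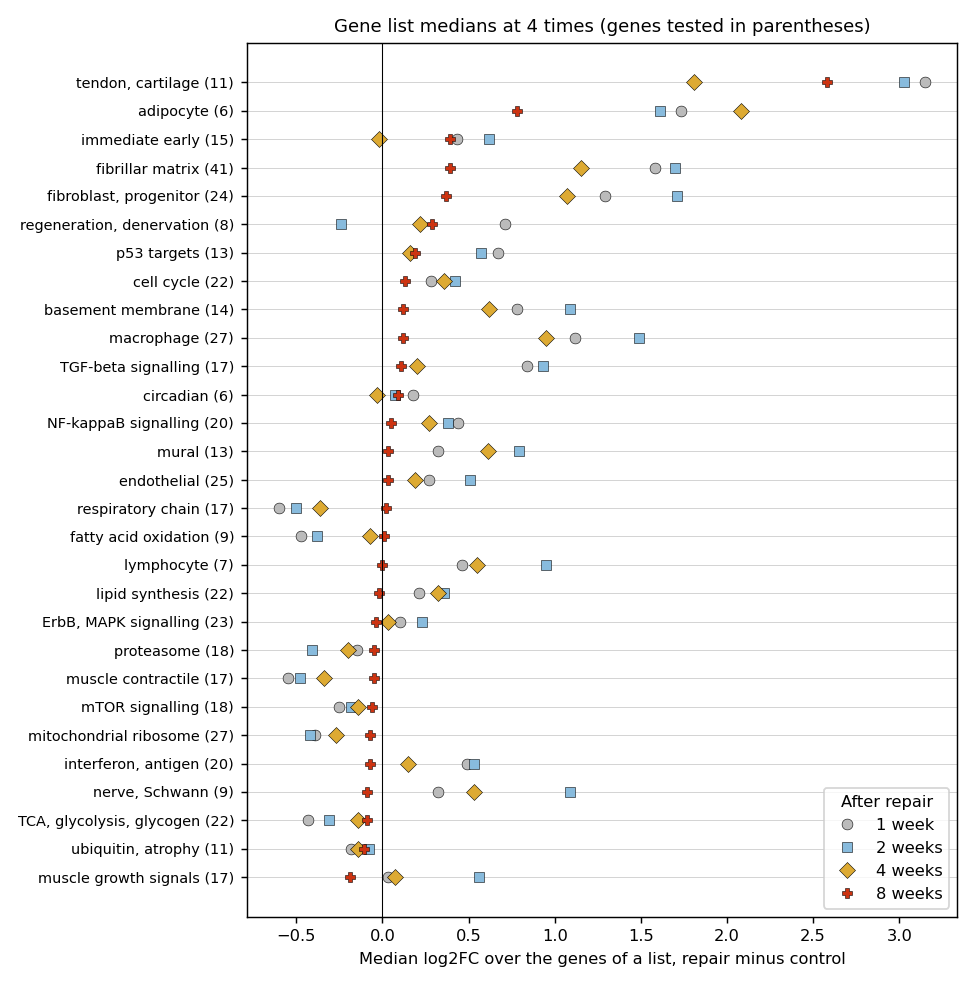
Median log2FC of repair minus control over the tested genes of each of 29 lists, 1 symbol for each time after repair (1, 2, 4 and 8 weeks), with the number of genes in parentheses. Most 8-week medians (red crosses) lie near 0, apart from tendon and cartilage markers at 2.58, adipocyte markers at 0.78 and the immediate early, matrix and fibroblast lists at 0.37 to 0.39.

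The 3 rabbits with both shoulders differed among themselves. Across genes, the paired log2 differences of rabbits 2 and 4 correlated at r = 0.45, those of rabbits 1 and 2 at 0.229 and those of rabbits 1 and 4 at -0.0174 (11426 genes, not independent replicates). Against the 1-week log2FC the values were 0.223 for rabbit 1, 0.569 for rabbit 2 and 0.559 for rabbit 4. The repair libraries were more variable than the controls, with a median SD of log2 CPM of 0.27 in repair and 0.189 in control, and 67.6% of genes had the larger SD in repair.

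Among the genes DE and higher at 1 week, the median paired difference at 8 weeks was 0.23 in rabbit 1, 0.67 in rabbit 2 and 0.50 in rabbit 4, and among those lower at 1 week it was 0.02, -0.47 and -0.59. Rabbit 1 nevertheless had the largest difference in tendon markers, a median of 3.90 against 1.69 and 1.76 in rabbits 2 and 4. On fibrillar matrix the 3 rabbits were close to each other, at 0.43, 0.50 and 0.46. Respiratory chain genes were higher in the repaired shoulder of rabbit 1 (0.36, 15 of 17 genes) and lower in rabbits 2 and 4 (-0.15 and -0.08), and macrophage markers were at -0.21, 0.30 and 0.32. Left out in turn, the repair library of rabbit 1 moved the median of the 520 genes to 0.60, that of rabbit 2 to 0.51 and that of rabbit 4 to 0.38. For the 169 genes the medians were -0.54, -0.40 and -0.26. Without the repair library of rabbit 4 the median of macrophage markers was -0.16 and that of nerve markers -0.36, and TGF-beta signalling was at 0.02. Without that of rabbit 1 growth signals were at -0.06, cell cycle genes at 0.03 and respiratory chain genes at -0.15, and without that of rabbit 2 the regeneration list was at 0.15 and p53 targets at 0.12.

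**Figure D5:**
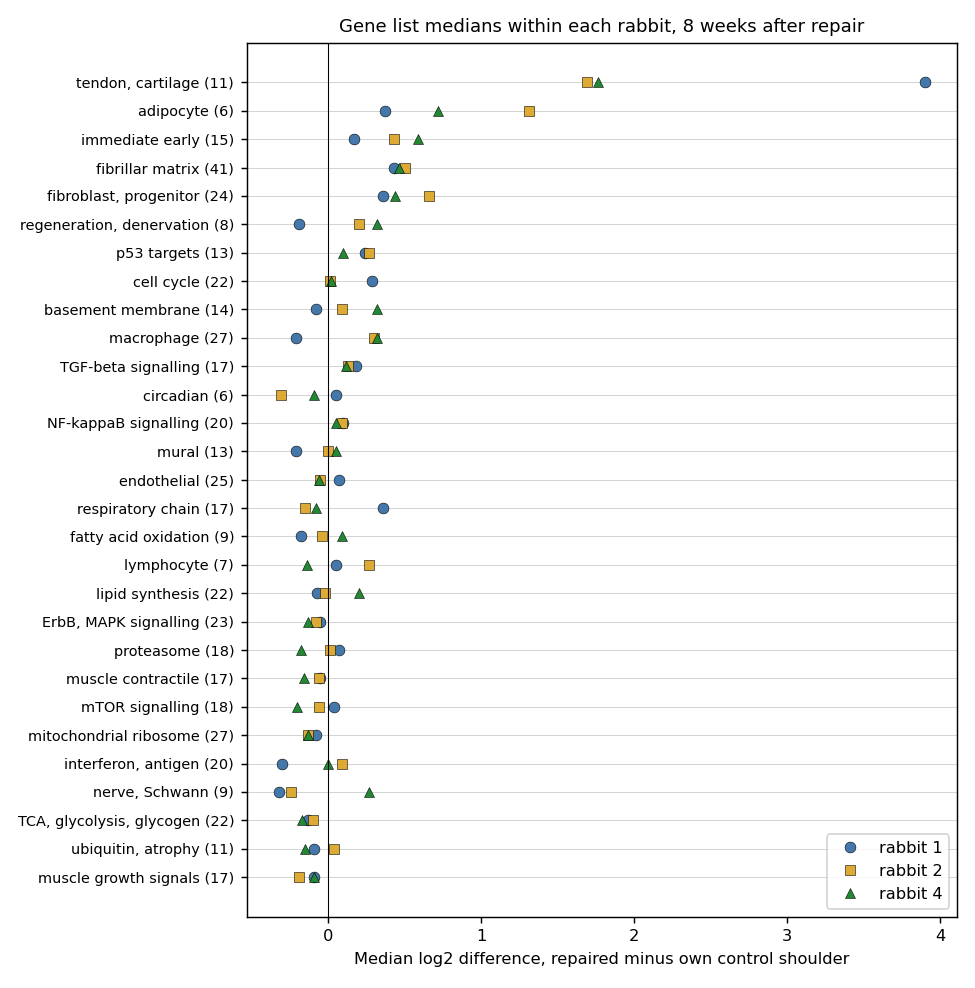
Median log2 difference between the repaired and the control shoulder of the same rabbit over the tested genes of each list, for rabbits 1, 2 and 4 (rabbit 3 has no repair library in the comparison). Tendon and cartilage markers lie at 3.90, 1.69 and 1.76, fibrillar matrix at 0.43 to 0.50 in all 3, and rabbit 1 lies on the other side of 0 from rabbits 2 and 4 for respiratory chain and macrophage genes.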

How the data were processed

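Total RNA of each muscle piece was sequenced from stranded mRNA libraries. The authors aligned single reads with STAR to the rabbit genome OryCun2.0 and deposited RSEM expected counts per gene, neither scaled nor filtered. In R 4.3.3, voom from limma 3.58.1 with TMM factors from edgeR 4.0.16 (limma-voom) was fitted to 33 libraries with 1 coefficient for each of 8 groups, and p-values were adjusted by Benjamini-Hochberg over 11426 genes. CPM uses TMM library sizes, and log2 CPM a prior count of 2. Expected counts were rounded for edgeR quasi-likelihood and DESeq2 1.42.0. Other library sets, scalings, filters, weights, a rabbit block and leaving out each 8-week library were tried as alternatives. The fit was tested on simulated data. P-values of the main fit rest on the spread between libraries within a group, pooled over all 8 groups. That fit treats both shoulders of a rabbit as independent.

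Shoulders share a rabbit, so the replicate numbers pair the samples: residuals of the 2 shoulders correlated at 0.0226 to 0.471 (median 0.278) in 16 rabbits, above 0.1 in 15. Symbols, those of human orthologs, came from partial copies of the study's tables (3254 of 11426 genes), so lists hold only part of their members, and fold changes in those tables were not used. Genes were named for being DE (at most 10), for the 8 highest and 8 lowest log2FC among separated genes with a symbol and a mean log2 CPM of at least 1, for being key members of the 29 lists, or for an interaction between 8 weeks and 1 week. The libraries, lists and rules were chosen with earlier results of these data known. All 29 lists are given by counts and medians without a set test. Figures were drawn with matplotlib 3.10.9 in Python 3.11.15.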

Additional observations from a re-analysis of the deposited data

Results flagged for a closer look

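In 66 of the named genes, the control libraries were screened by Dixon's 95% limit for 4 samples. In 11 of these genes 1 control library stood apart from the other 3 by more than that limit. Chance flags about 1 in 20 groups if values are normally distributed, which was not checked for CPM. MATN4 and ANGPTL7 were not among the genes screened and so are not counted in the 11. The control of rabbit 4 stood above its fellow controls there too. In 6 of the 11 genes this was the highest control value of rabbit 4: FMOD at 43 CPM, COL11A1 at 24.8 CPM, THBS4 at 145 CPM, ACAN at 1.69 CPM, GREM1 at 0.59 CPM and SMOC1 at 3.46 CPM. The first 4 are tendon and cartilage markers, whose sum in that library was 331 CPM over 11 markers against 84.4 to 123 CPM in the other controls, and matrix genes in the same library were within the range of the other controls (3974 CPM summed, against 2665 to 4545 CPM). Leaving this library out gave 0 DE genes at 8 weeks, and the part of tendon in its values was not tested.

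In the control of rabbit 2, UQCRC1 was high at 585 CPM, MAP2K1 high at 102 CPM and PDGFRA low at 28.6 CPM. FABP7 was high at 2.59 CPM in the control of rabbit 1, and LVRN high at 9.87 CPM in that of rabbit 3. The repair group has 3 libraries and was not examined in this way.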

How the results depend on the processing

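The count of DE genes at 8 weeks was 0 in the fit reported, with median-ratio size factors, with a filter that asks for 3 libraries above the CPM minimum, and with the replicate block set as a rabbit correlation. It was 1 with all 34 libraries, 1 with the 7 libraries of 8 weeks alone, 1 with the 15 of 1 and 8 weeks, 1 with filterByExpr, 1 with edgeR, 2 with the replicate block as a fixed effect, 3 without a filter, 5 with DESeq2 (3 of these at log2FC of 23.14, -22.19 and -21.46) and 61 with sample quality weights. Where it was 1, the gene was ENSOCUG00000013161 with all 34 libraries, filterByExpr and edgeR, and FBLN7 with the 7 or the 15 libraries. ENSOCUG00000013161 was also among the genes called without a filter, with the fixed block, with DESeq2 and with quality weights. Leaving out 1 library gave 0 to 4, the 4 without the repair library of rabbit 1. For the difference between 8 weeks and 1 week the count was 2 without a filter, 2 with DESeq2 and 25 with quality weights. Against 2 weeks it was 1 without a filter and 14 with DESeq2, with 0 to 1 when 1 library was left out, and against 4 weeks it was 1 without a filter and 3 with DESeq2. The block gave 0 for each of these differences.

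Of 1248 recomputed log2FC values of 66 named genes, 1217 kept their direction and their side of the threshold, 23 passed it (most with quality weights) and 8 changed sign. With all 34 libraries these were UQCRC1 (0.28), CD36 (-0.33), GAB1 (-0.11), FN1 (-0.13) and TCAP (0.66), where the added library is the one that failed quality control. With 1 library left out they were ATP2A1 (-0.57 to 0.17), MYOM2 (-0.01 to 0.33) and COL3A1 (-0.01 to 0.42). Of 145 list medians recomputed, 19 moved by more than the SD between rabbits. For the list medians alone, leaving out the control of rabbit 4 was chosen after the data were seen.

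The groups hold 3 and 4 libraries, the repair libraries varied more than the controls, and for genes such as COL1A1, FN1 and IGF1 the standard error was close to or above the difference. A p that missed the threshold does not show that repair and control were alike. Genes of low abundance such as GREM1 and HCAR1 rest on few counts. Symbols cover part of the genes, so the lists are incomplete.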

Other observations

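The repair library of rabbit 3 was left out for its quality above, except in the fit with all 34 libraries. Here it was set beside the 4 controls on plain CPM. It lay above all 4 controls for 28.3% and below all 4 for 63.8% of the 11426 genes, which shows how far its whole profile was displaced. Of the 464 genes separated and higher in the other 3 repair libraries it lay above all controls for 190 (40.9%) and below all for 224 (48.3%). Of the 423 separated and lower it lay below all controls for 329 (77.8%) and above all for 74 (17.5%). The same 4 controls chose these genes, which favours the same direction in any further library, so these shares do not test the separation. Among tendon and cartilage markers it was above all controls for 7 of 11 and below all for 0, among genes DE and higher at 1 week it was above for 256 of 520 (49.2%) and below for 199 (38.3%), and among fibrillar matrix genes above for 17 of 41 (41.5%) and below for 16 (39%). Respiratory chain genes were above in 11 of 17 and below in 3, and basement membrane genes above in 1 of 14 and below in 13.

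Directions shared between times were more common than opposed ones. In paired differences, 1103 genes were higher in all 3 rabbits of 8 weeks and all 4 rabbits of 1 week, and 795 were lower in all of them. Opposite directions in every rabbit were seen for 107 genes higher at 8 weeks and lower at 1 week and for 108 genes lower at 8 weeks and higher at 1 week. These counts describe the 7 rabbits and were not tested.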
